A study of Mus musculus with 6 samples.

Results

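The 9 genes described here belong to the cerebellar anlage and the granule cell lineage. They are the proneural factor Atoh1, the BarH homeobox genes Barhl1 and Barhl2, the zinc finger genes Zic1, Zic2, Zic4 and Zic5, and the cerebellins Cbln1 and Cbln3. They were taken by symbol from a table of read counts for 24391 gene symbols, and all 9 were found. The study concerns Celf2, which encodes an RNA-binding protein of neurons. RNA came from hemibrains of newborn mice at postnatal day 0. Of 6 libraries, 3 were labelled Celf2 -/- (null, pups 2, 4 and 10) and 3 were labelled Celf2 +/- (heterozygous, pups 6, 7 and 11). The control group therefore also carries a mutant Celf2 allele, and no wild-type library was analysed here. The labels name neither the strain, the kind of Celf2 allele, litter, sex nor how much of the hindbrain each hemibrain kept.

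Granule cells are the most numerous neurons of the cerebellum. Their precursors arise in the rhombic lip of the dorsal hindbrain, where Atoh1 is required for them to form, then spread over the cerebellar surface and divide around birth in response to Sonic hedgehog. Barhl1 is switched on in the Atoh1 lineage as these cells leave the rhombic lip. Zic proteins are zinc finger transcription factors that keep dorsal neural progenitors in a dividing, immature state. They are abundant in granule cells and are also made in dorsal midline forebrain, septum, thalamus, olfactory bulb and meninges. Cerebellins are secreted proteins of the C1q family. Granule cells release Cbln1, which bridges neurexins on their axons to the glutamate receptor GluD2 on Purkinje cells, and Cbln3, which is secreted only in complexes with Cbln1. Cbln1 is also made by neurons outside the cerebellum, among them thalamic ones.

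Library totals ranged from 28831997 to 36531980 counts. Celf2 lay between 362 and 459 CPM (read counts scaled to a common library size) in heterozygous libraries and between 331 and 448 CPM in libraries labelled null, so its total did not check the labels, and every direction below rests on them. The ribosomal RNA precursor Rn45s took 11.8% of counts in the library labelled null pup 2 and at most 1.27% elsewhere. Levels below are CPM on library sizes scaled by the trimmed mean of M values, which corrects for such differences in composition, and errors are SDs over 3 libraries. In RNA from a whole hemibrain, fewer cells of a type and less RNA per cell cannot be told apart.

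Promoter sequence is shown for Atoh1 and Barhl1, transcription factors of the granule precursors that both had their lowest level in the library labelled null pup 2. The sequences are from RefSeq on GRCm38.p6, cover the 250 bases before each start, and are written 5′ to 3′ on the gene's strand, with motif matches in capitals. Matches were found for 2 of the 4 motifs searched, the E-box CAGCTG, of the kind that Atoh1 and other basic helix-loop-helix factors bind, and TAATTG or its reverse complement CAATTA, a core bound by homeodomain proteins. The lower 2 sequences are the 2 annotated starts of Barhl1.
Atoh1, chr6:64728875-64729124, plus strand: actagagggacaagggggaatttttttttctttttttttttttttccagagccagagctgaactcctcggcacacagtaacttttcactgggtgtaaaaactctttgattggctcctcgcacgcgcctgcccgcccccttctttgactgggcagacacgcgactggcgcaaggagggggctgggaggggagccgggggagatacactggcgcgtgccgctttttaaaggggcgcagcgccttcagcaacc
Barhl1, chr2:28916669-28916918, minus strand: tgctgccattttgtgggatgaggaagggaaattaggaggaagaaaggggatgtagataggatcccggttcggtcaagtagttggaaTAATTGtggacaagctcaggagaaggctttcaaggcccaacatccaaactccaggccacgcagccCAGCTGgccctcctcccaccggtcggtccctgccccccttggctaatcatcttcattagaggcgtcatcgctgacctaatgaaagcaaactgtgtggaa
Barhl1, chr2:28912496-28912745, minus strand: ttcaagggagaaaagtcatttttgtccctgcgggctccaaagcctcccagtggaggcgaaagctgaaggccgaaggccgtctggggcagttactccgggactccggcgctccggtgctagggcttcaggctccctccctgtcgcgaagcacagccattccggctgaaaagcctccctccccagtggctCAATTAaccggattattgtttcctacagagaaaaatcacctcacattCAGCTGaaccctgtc

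In the first Barhl1 window CAGCTG begins 99 bases before the start and TAATTG 164 bases before it. In the second, CAGCTG begins 15 bases and CAATTA 62 bases before the start. The Atoh1 window held neither, nor CAGATG, another E-box, nor the ZIC motif CAGCAGG. On either strand, CAGCTG occurred in 13% of 32851 annotated windows of the same length, CAGATG in 14.4%, TAATTG in 7.17% and CAGCAGG in 8.44%. These motifs do not overlap one another in the printed windows. Windows for 7 of the 9 genes were found, and those of Cbln1 and Zic2 were not. The windows of Barhl2, Cbln3, Zic1, Zic4 and Zic5 held none of the 4 motifs.

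Atoh1, the factor that founds the lineage, had the lowest CPM of the 9 genes. It was at 0.430, 1.145 and 0.741 CPM in heterozygous pups 6, 7 and 11, from 16, 34 and 26 counts. In libraries labelled null it was at 0.0394, 0.207 and 0.884 CPM in pups 2, 4 and 10, from 1, 7 and 26 counts. The single count in null pup 2 has an exact 95% Poisson interval of 0.0253 to 5.57 counts, which covers counting error only. Null pup 10 lay above 2 of the 3 heterozygous libraries, while pups 2 and 4 lay below all 3, so the groups overlapped. The log2 fold change, null minus heterozygous here and below, was -0.99 ± 0.72 (SE), with a 95% interval of -2.60 to 0.63 and an edgeR adjusted p of 0.853. It was -2.48 without null pup 10 (adjusted p = 0.317), -0.505 without null pup 2, -0.608 without heterozygous pup 7 and -1.60 with limma-voom. With a covariate for the average level of 8 Hox genes, which mark tissue behind the cerebellum, it was -0.45. That average was higher in every heterozygous library than in any labelled null, so this fit cannot separate Hox level from genotype.

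Barhl1 followed the same order among the libraries labelled null at far higher counts, 228 to 956 a library. Heterozygous pups 6, 7 and 11 held 21.1, 26.3 and 27.2 CPM. Null pups 2, 4 and 10 held 8.98, 18.6 and 26.2 CPM. Pup 2 was far below every other library, pup 4 was just under the lowest heterozygous library, and pup 10 lay within the heterozygous range. The group means were 24.9 ± 3.33 and 17.9 ± 8.62 CPM, and the log2 fold change was -0.47 (SE 0.345, fold 0.722 with a 95% interval of 0.410 to 1.27, edgeR adjusted p = 0.862). Without null pup 2 it was -0.15, and without null pup 10 it was -0.84 (adjusted p = 0.448).

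**Figure D1:**
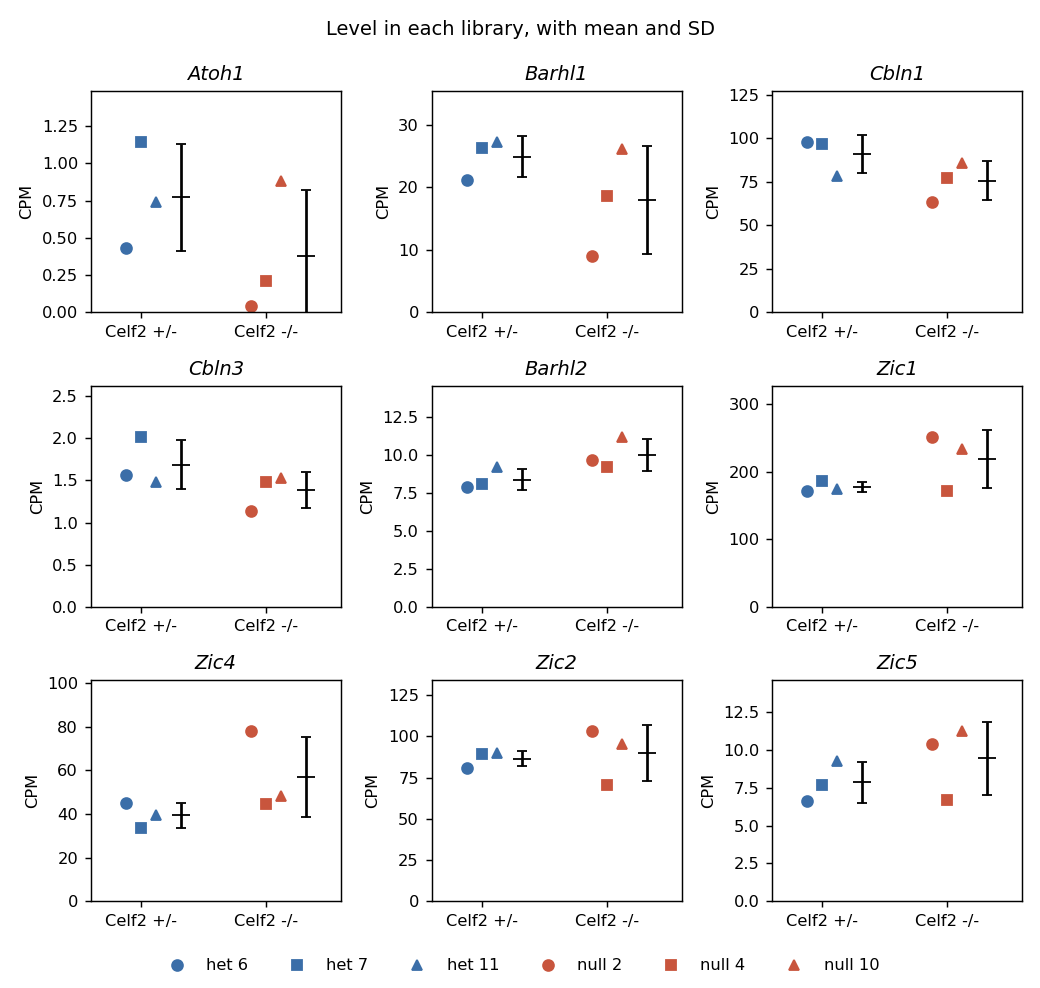
Level of each gene in CPM (vertical axis, linear from 0, a scale of its own in each panel) in 3 Celf2 +/- (blue) and 3 Celf2 -/- (red) libraries, with marker shapes for single pups and the mean ± SD in black beside each group. The lower SD bar of Atoh1 in the null group reaches the axis. Barhl1 stood at 8.98 CPM in null pup 2 against 18.6 to 27.2 CPM in the other libraries.

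The cerebellins had negative fold changes. Cbln1 was at 97.9, 96.8 and 78.5 CPM in heterozygous pups 6, 7 and 11 and at 63.55, 77.45 and 86.0 CPM in null pups 2, 4 and 10. Null pups 2 and 4 lay below every heterozygous library and null pup 10 did not, so the groups overlapped. The means were 91.1 ± 10.9 and 75.7 ± 11.35 CPM (log2 fold change -0.27, SE 0.12, 95% interval -0.54 to 0.0028, edgeR unadjusted p = 0.052, adjusted p = 0.711). The fold change was -0.154 without null pup 2 and -0.09 with the Hox covariate. It was -0.368 without null pup 10 (edgeR adjusted p = 0.41) and -0.363 without heterozygous pup 11.

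Cbln3, which marks maturing granule cells after birth, was near the bottom of the range. Its heterozygous levels were 1.56, 2.02 and 1.48 CPM and its levels in null pups 2, 4 and 10 were 1.14, 1.48 and 1.53 CPM, from 29 to 60 counts a library. Null pup 2 was again the lowest, and the other 2 null libraries lay within the heterozygous range. The log2 fold change was -0.27 (SE 0.25, edgeR adjusted p = 0.892) and 0.07 with the Hox covariate. It was -0.158 without null pup 2, -0.13 without heterozygous pup 7 and -0.359 without heterozygous pup 11. Gabra6, a receptor subunit of mature granule cells, had at most 5 counts in a library and was not tested. Neurod1, also listed as a granule cell marker, had 868 to 1251 counts a library. It was at 32.1, 34.6 and 35.6 CPM in heterozygous pups 6, 7 and 11. Null pups 2, 4 and 10 held 34.2, 33.1 and 39.5 CPM (log2 fold change 0.06, SE 0.11, edgeR adjusted p = 0.955).

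The 4 Zic genes had positive fold changes, opposite in sign to those of Atoh1, Barhl1 and the cerebellins. Zic1, the most abundant of them, was at 171, 185 and 174 CPM in heterozygous pups 6, 7 and 11. Null pups 2, 4 and 10 held 252, 170.5 and 234 CPM. Pups 2 and 10 stood above all heterozygous libraries, while pup 4 was the lowest of the 6. The means were 177 ± 7.62 and 219 ± 42.6 CPM, a log2 fold change of 0.31 (SE 0.13, 95% interval 0.02 to 0.59, edgeR unadjusted p = 0.0361, adjusted p = 0.662). It was 0.195 without null pup 2 and 0.457 without null pup 4 (edgeR adjusted p = 0.317).

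Zic4, the divergently transcribed neighbour of Zic1 on chromosome 9, had the largest positive fold change of the 9 genes. It was at 45.2, 33.7 and 39.7 CPM in heterozygous pups 6, 7 and 11 and at 77.9, 44.5 and 48.1 CPM in null pups 2, 4 and 10. Null pup 2 stood apart at the top, null pup 10 lay above the heterozygous range and null pup 4 within it. The means were 39.5 ± 5.75 and 56.8 ± 18.3 CPM (log2 fold change 0.52, SE 0.21, 95% interval 0.05 to 0.997, edgeR unadjusted p = 0.035, adjusted p = 0.659). The fold change was 0.23 without null pup 2, 0.18 with the Hox covariate and 0.671 without null pup 4 (edgeR adjusted p = 0.614). In RefSeq the annotated Zic1 and Zic4 genes overlap, and the strand setting of the counting is not given in the sources used here. Reads in that overlap could therefore count for either.

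Zic2 and Zic5 are the corresponding neighbours on chromosome 14. Zic2, whose loss disturbs midline forebrain development, was at 81.0, 89.1 and 89.7 CPM in heterozygous pups 6, 7 and 11 and at 103, 70.6 and 95.3 CPM in null pups 2, 4 and 10. The null libraries thus lay on both sides of the heterozygous ones (log2 fold change 0.05, SE 0.13, 95% interval -0.23 to 0.33, edgeR adjusted p = 0.9695). Zic5 had 6.62, 7.675 and 9.29 CPM in the heterozygous pups, against 10.4, 6.67 and 11.2 CPM in null pups 2, 4 and 10 (0.26, SE 0.21, adjusted p = 0.875). Its fold change ran from 0.01 with the Hox covariate through 0.114 without null pup 10 to 0.46 without null pup 4. In all 4 Zic genes null pups 2 and 10 lay above every heterozygous library and null pup 4 lay below at least 1 of them. Zic2 changed sign with library size alone (-0.05), with the Hox covariate (-0.04) and without null pup 2 (-0.06), and was 0.196 without null pup 4.

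Barhl2, a relative of Barhl1 that is also made in diencephalon and spinal cord, did not share the pattern of Barhl1. It was at 7.88, 8.08 and 9.20 CPM in heterozygous pups 6, 7 and 11 and at 9.65, 9.215 and 11.2 CPM in null pups 2, 4 and 10. The groups did not overlap, but null pup 4 and heterozygous pup 11 were nearly equal. The fitted log2 difference was 0.26 ± 0.15 (SE), with a 95% interval of -0.07 to 0.58 and an edgeR adjusted p of 0.798. It was 0.169 without null pup 10, 0.14 with the Hox covariate and 0.329 without heterozygous pup 11. In null pup 2 there were 107 Barhl2 reads for each 100 Barhl1 reads, against 30.7 to 49.6 in the other 5 libraries.

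None of the 9 genes passed at an adjusted p of 0.05 (0 of 9), where edgeR's quasi-likelihood test called 0.00628% of 15925 genes tested. At an unadjusted p of 0.05, 2 of the 9 were counted, Zic1 and Zic4, both higher in libraries labelled null, against 7.06% of all genes in either direction and 4.13% in that one. None was counted as lower (0 of 9, against 2.93%). In the alternative fits Cbln1 had an unadjusted p under 0.05 as lower in 6 of 16, Barhl1 in 1 of 16 and Atoh1 in 1 of 15. Zic1 had one as higher in 9 of 16 and Zic4 in 11 of 16. The DESeq2 Wald test also called 0 of the 9 after adjustment, where it called 0.402% of 15918 genes. The groups did not overlap for 1 of the 9, Barhl2, against 12.7% of all genes tested. By direction, 6.21% of all genes were higher without overlap in libraries labelled null and 6.47% lower. All 9 passed the filter on low counts. Fold changes were positive for 5 genes and negative for 4, with a median of 0.05 against -0.00093 over all genes tested. The median of the 9 is the value of Zic2 and changed sign with it. Null pup 2 held the lowest level of 4 genes and the highest of 3, so 7 of the 9 had an extreme there. Over all genes tested that library was the lowest for 20.9% and the highest for 18.4%.

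**Figure D2:**
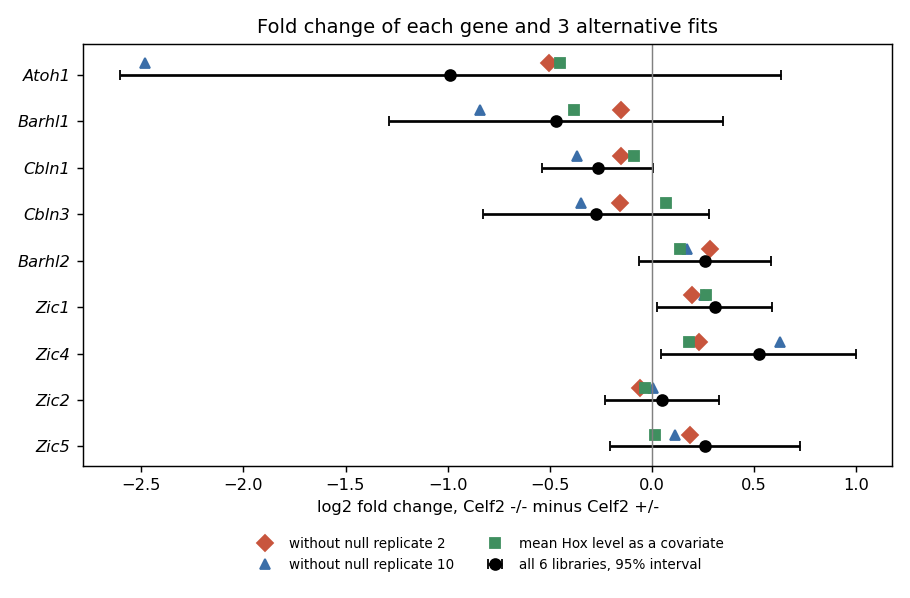
Log2 fold change (horizontal axis, null minus heterozygous) of each gene from the edgeR fit to 6 libraries (black, with 95% interval) and from 3 alternative fits (coloured). Atoh1 moved from -0.99 to -2.48 without null pup 10 and to -0.505 without null pup 2, and only the intervals of Zic1 and Zic4 lay wholly on one side of 0.

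Levels per length put the genes on one scale. In CPM per kilobase, averaged over the 6 libraries, Zic1 was at 59.0, Cbln1 at 35.7, Zic2 at 29.7, Zic4 at 11.8, Barhl1 at 5.79, Barhl2 at 3.98, Zic5 at 3.63, Cbln3 at 0.325 and Atoh1 at 0.275. The ranges of neighbours in this order overlapped for Cbln1 and Zic2, for Barhl1 and Barhl2, for Barhl2 and Zic5, and for Cbln3 and Atoh1, whose order is thus not settled. Zic1 lay above Cbln1, Zic2 above Zic4, Zic4 above Barhl1 and Zic5 above Cbln3 in all 6 libraries with no overlap of ranges. Within each divergent pair 1 partner was the stronger one, Zic1 over Zic4 and Zic2 over Zic5.

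Ratios of counts within a library do not depend on how libraries are scaled. For each 100 reads of Zic1 there were 12.3, 14.2 and 15.6 reads of Barhl1 in heterozygous pups 6, 7 and 11 and 3.57, 10.9 and 11.2 in null pups 2, 4 and 10, so all 3 null libraries lay below the heterozygous ones. For each 100 reads of Zic1 there were 47.4, 48.0 and 51.5 reads of Zic2 in heterozygous libraries and 41.0, 41.4 and 40.8 in those labelled null, which is a narrow range in each group. Zic4 gave 26.4, 18.2 and 22.8 against 31.0, 26.1 and 20.6 reads for each 100 of Zic1, and these overlapped. Cbln3 stayed between 1.59 and 2.09 reads for each 100 of Cbln1 in all 6 libraries. Of 36 pairs among the 9 genes, 8 had ratios that did not overlap between the groups. Without any group difference a share of 0.1 of pairs would do so. Pairs that share a gene are not independent, and the share over all gene pairs was not computed. Each of those 8 has an exact two-sided permutation p of 0.1, the smallest that 3 against 3 libraries can give, and 0.4 after Benjamini-Hochberg adjustment over the 36 pairs, so the ratios are given as descriptions.

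**Figure D3:**
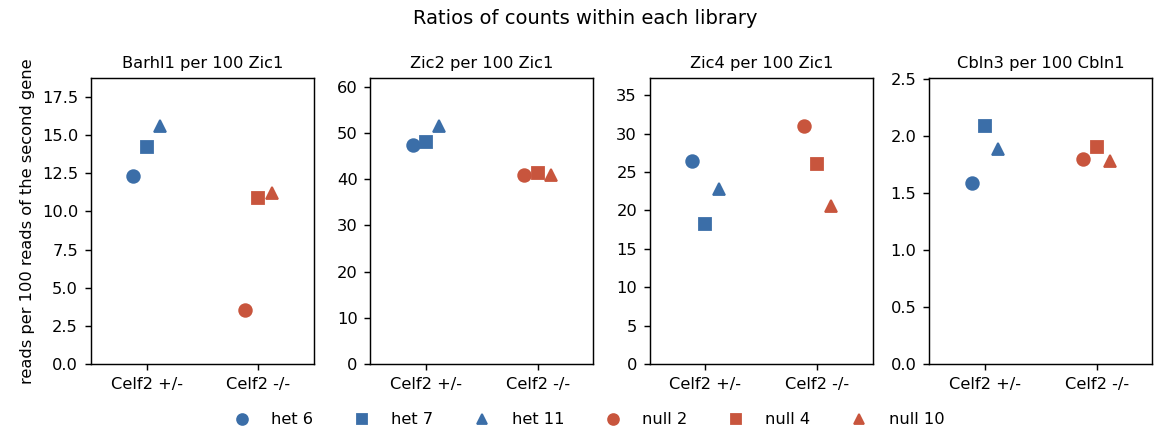
Reads of one gene for each 100 reads of another in the same library (vertical axis, linear from 0), by genotype and pup. Barhl1 and Zic2 relative to Zic1 lay lower in all 3 null libraries than in any heterozygous one, whereas Zic4 relative to Zic1 and Cbln3 relative to Cbln1 overlapped.

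Other genes of the granule lineage had fold changes of both signs. Of 14 listed genes 13 were tested, with 6 positive and 7 negative fold changes, a median of -0.04 and 0 passing the adjusted test. The median was 0.07 without heterozygous pup 7, 0.03 without null pup 2, 0.04 without null pup 4, -0.01 without heterozygous pup 6, -0.02 without null pup 10 and -0.10 without heterozygous pup 11, so its sign rests on single libraries. The 3 genes with the smallest p had differences of both signs. Cntn2, an adhesion protein of young granule cells and many other growing axons, was at 329, 290.5 and 289.6 CPM in heterozygous pups 6, 7 and 11 and at 408, 385 and 377 CPM in null pups 2, 4 and 10 (log2 fold change 0.36, SE 0.07, edgeR adjusted p = 0.353). Meis1, a homeobox gene of granule precursors, had 28.65, 39.9 and 30.3 CPM in the heterozygous pups against 19.7, 22.0 and 22.4 CPM in null ones (-0.62, SE 0.14, adjusted p = 0.368). Insm1, a factor of neuronal precursors in many regions, was at 0.33 (adjusted p = 0.765). Among the 13 tested, the groups did not overlap for Cntn2 (higher) and Meis1 (lower), against 12.7% of all genes tested in either direction.

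The Sonic hedgehog pathway, which drives granule precursors to divide, had 9 positive and 6 negative fold changes among 15 genes, a median of 0.11 and 0 called. The median was -0.01 without null pup 2, 0.04 without heterozygous pup 6, 0.05 without null pup 10 and 0.02 with library size alone. Its smallest p belonged to Mycn, the pathway's growth target, at 53.5 to 60.1 CPM in heterozygous libraries and 61.0 to 70.3 CPM in those labelled null (0.18, edgeR adjusted p = 0.746). Among 10 genes of the rhombic lip, the roof plate and other Atoh1-derived neurons 4 were positive and 6 negative, with a median of -0.09 and 0 called. That median was 0.04 without null pup 2 and -0.01 without heterozygous pup 7, and between -0.21 and -0.14 without any other single library. Lmx1b was at -0.98 (adjusted p = 0.666) and Lhx2, which the cortex also expresses, at 0.35 (adjusted p = 0.622). Of 7 other cerebellins and their receptors, 6 had negative fold changes, with a median of -0.12 and 0 called. The median was -0.0083 without heterozygous pup 7, -0.03 without null pup 2, -0.06 without null pup 10 and 0.00055 with the Hox covariate. Cbln4 was at 27.6 to 28.0 CPM in heterozygous libraries and at 15.2, 27.5 and 23.9 CPM in null pups 2, 4 and 10 (-0.32, adjusted p = 0.80), so its lowest value was in the same library as that of Cbln1.

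Markers of the granule cells' cerebellar partners and of neighbouring regions are given beside these values. Of 14 Purkinje cell genes 12 were negative, with a median of -0.30 (-0.13 without null pup 2) and 0 called, and 8 had their lowest level in null pup 2. Pcp4, a calmodulin-binding protein also found elsewhere in the brain, was at 72.4 to 89.2 CPM in heterozygous libraries and 59.1 to 64.5 CPM in those labelled null (-0.36, edgeR adjusted p = 0.496). Pvalb was at -0.86 (adjusted p = 0.527) and Dab1, which many migrating neurons express, at 0.25 (adjusted p = 0.522). Of 5 genes of GABAergic progenitors of the cerebellum, 3 were tested and 3 were lowest in null pup 2. All 3 had negative fold changes, with 0 called and a median of -0.71, which was -0.41 without null pup 2 and -1.19 without null pup 10. Pax2, a factor of cerebellar interneuron precursors, was at 7.64, 18.6 and 4.62 CPM in heterozygous pups 6, 7 and 11 and at 1.26, 3.26 and 3.54 CPM in null pups 2, 4 and 10. Kirrel2 was at -0.71 and Gdf10 at -0.04. Pax2 is counted again in the midbrain and isthmus list below.

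The summed level of 10 midbrain and isthmus genes was 71.4, 77.3 and 68.4 CPM in heterozygous pups 6, 7 and 11 and 36.9, 53.8 and 68.2 CPM in null pups 2, 4 and 10, the same order among null libraries as for Atoh1 and Barhl1. Of the 9 tested, 8 had negative fold changes, with a median of -0.48 and 0 called. The median was -0.21 without null pup 2, -0.99 without null pup 10 and -1.16 with limma-voom. The smallest p belonged to Pax8 (-2.08, SE 0.48, edgeR adjusted p = 0.441). Of the 9 tested, 5 had their lowest level in null pup 2, whereas Gbx2, Otx2, Wnt1 and Fgf17 lay there within the range of the other libraries. Among genes picked with their values in view, En2 was at 0.985 CPM in null pup 2 against 10.8 to 17.95 CPM in the others. Pax5 was at 0.0394 CPM in that library against 1.73 to 2.23 CPM. The cerebellar and brainstem factor Tlx3, of the granule lineage list, was at 0.236 CPM against 0.948 to 5.39 CPM. The 14 Hox genes, which mark hindbrain behind the cerebellum and spinal cord, summed to 21.7, 194 and 10.8 CPM in heterozygous libraries and to 3.82, 7.32 and 3.54 CPM in those labelled null, and Hoxb1 was at 0 counts in all 6. All 8 tested had negative fold changes, with a median of -3.37 (-1.75 without heterozygous pup 7) and 0 called, Hoxb2 being at -2.93 (SE 0.65, edgeR adjusted p = 0.438). The 10 telencephalic genes summed to 1330 to 1440 CPM in heterozygous libraries and to 1710 to 1840 CPM in those labelled null, 10 of 10 with positive fold changes, a median of 0.39 and 0 called. Neurod6, a factor of cortical projection neurons, was at 170 to 188 CPM and at 243 to 271 CPM (0.53, SE 0.07, edgeR adjusted p = 0.062). The mean log2 CPM of the 8 tested Hox genes was -0.0845 to 3.71 in heterozygous libraries and -1.57 to -0.435 in those labelled null. The Hox covariate given above thus cannot be told apart from genotype. The part of these regional markers in the differences of the 9 genes was not tested.

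**Figure D4:**
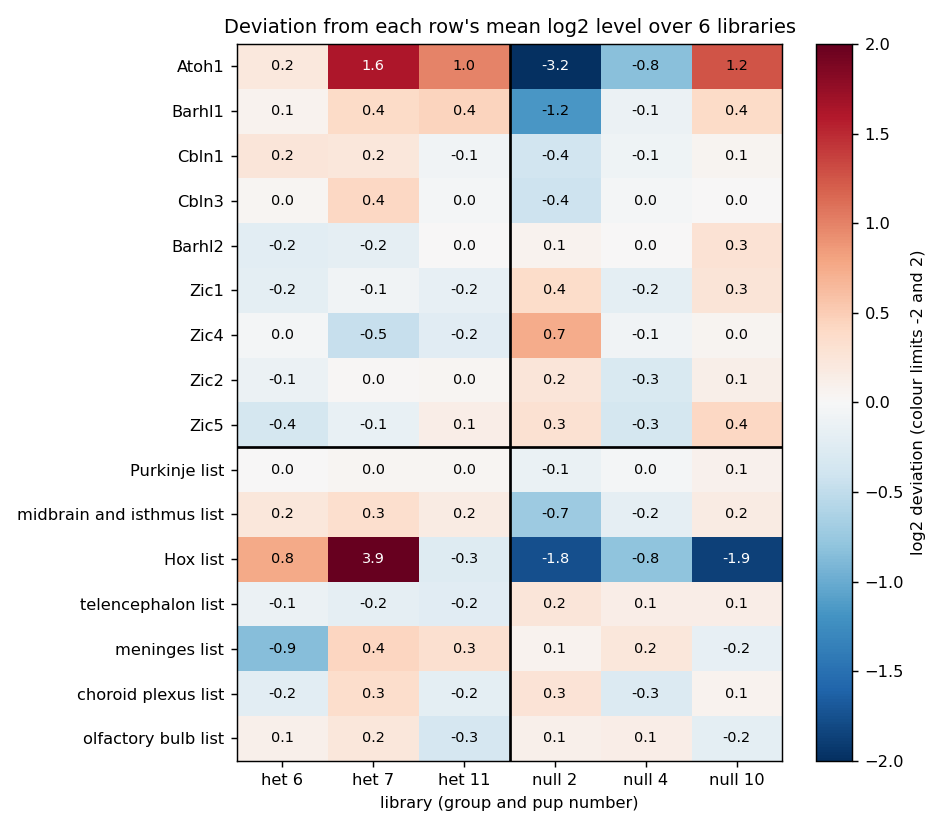
Log2 deviation of each gene (upper block) and of the summed CPM of marker lists (lower block) from its own mean over the 6 libraries (columns, by group and pup), with the value in each cell and colours limited at -2 and 2. Null pup 2 is low for Atoh1, Barhl1, the cerebellins and the midbrain list and high for the 4 Zic genes, whereas the Hox list is low in all 3 null libraries.

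Meninges, which also express Zic genes, and choroid plexus were checked in the same way. The 10 meningeal genes summed to 228, 555 and 514 CPM in heterozygous pups 6, 7 and 11 and to 433, 483 and 368 CPM in null pups 2, 4 and 10, with 3 positive and 7 negative fold changes, a median of -0.05 and 0 called. All 10 were lowest in heterozygous pup 6. Their median was -0.36 without that library and 0.16 without heterozygous pup 7, 0.07 without heterozygous pup 11, 0.04 without null pup 10, -0.09 without null pup 2 and -0.145 without null pup 4. The 7 choroid plexus genes summed to 576 to 851 CPM and to 551 to 805 CPM, with 7 positive fold changes, a median of 0.14 and 0 called. That median was 0.0058 without heterozygous pup 11, 0.02 without heterozygous pup 6 and 0.23 without heterozygous pup 7. The part of either tissue in the Zic differences was not tested.

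The genes whose log2 CPM was most like the mean of the 9 genes over the 6 libraries were Zfp711 (Pearson r = 0.994, Spearman rho = 1), Rsrc2 (r = 0.992, rho = 1), Gid8 (r = 0.992, rho = 1), Smg5 (r = 0.992, rho = 0.943) and Gldn (r = 0.992, rho = 1). For the 4 Zic genes alone they were Cenpf (r = 0.989, rho = 0.943), Pemt (r = 0.989, rho = 0.943), Svopl (r = 0.989, rho = 0.829), Emx2 (r = 0.989, rho = 0.943) and Trim3 (r = 0.987, rho = 0.943). Atoh1, whose log2 levels spread most, weighs most in the mean of the 9. Of 15916 genes compared, 62 and 42 had r above 0.95 with the respective profile. With 6 libraries that share depth and composition differences these likenesses are descriptions only.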

How the data were processed

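The deposited table holds the authors' read counts, whole and not normalized, for each gene symbol, and a length in bases. The submitters' processing notes list STAR, cutadapt, CASAVA, bedtools, Picard and MACS2, with mm9 and hg19 as builds, and give no roles or versions. What tool counted the reads, on which strand and with which annotation is not given in the sources used here. The labels' protocols describe a stranded kit for total RNA, while the molecule field and the design text say poly(A) RNA. The promoter reference is of another build, so it served for sequence, names and neighbours.

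Counts were tested with edgeR 4.0.16 in R 4.3.3 (filterByExpr, TMM factors, robust quasi-likelihood test, Benjamini-Hochberg adjustment over 15925 genes, threshold 0.05). Standard errors are the fold change over the square root of F. Log2 CPM used a prior count of 2. The smallest chi-square per gene between libraries was 11.2, so no pair agreed within sampling noise. No label says that the pups came from separate litters, so p-values measure the spread between these samples. Alternatives were other scalings, filters and dispersion, DESeq2 1.42.0, limma-voom (limma 3.58.1), removal of 121 structural RNA rows, a covariate of the mean log2 CPM of the 8 tested Hox genes, and leaving out each library. The fit was also run on simulated counts, with the same dispersion for every gene and, apart from planted changes, the same composition in every library. That run checks the code and not how the fit handles libraries that differ as these do.

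The 9 genes, the lists and the Hox covariate were chosen with earlier results of these data known. The rule named the 9 genes, Celf2, up to 3 genes of each list with the smallest p, and the 5 genes most like the 9 genes and most like the Zic genes, and any other gene with values was picked with those values in view.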

Additional observations from a re-analysis of the deposited data

How the results depend on the processing

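No paired analysis was possible because the groups share no replicate numbers. The count of 0 among the 9 genes at an adjusted p of 0.05 held in all 16 alternatives. Over all genes tested the count of 1 became 0 with DESeq2 size factors, a CPM minimum, limma-voom, the Hox covariate, structural RNAs left out and dispersion that was not robust, 2 with library size alone or upper-quartile factors, 3 with no low-count filter and 64 with DESeq2, and ranged from 0 to 4 without single libraries, 4 being without null replicate 10. Of the 9 genes, 2 had an unadjusted p under 0.05, against 3 with upper-quartile factors, 3 with DESeq2, 1 with limma-voom and 0 with the Hox covariate. Without single libraries that count ran from 0 (without null replicate 2) to 4 (without null replicate 10). The 1124 genes with such a p became 425 with the Hox covariate and 599 (without heterozygous replicate 7) to 1554 (without heterozygous replicate 11) without single libraries. Zic2 changed sign with library size alone (-0.0459), the Hox covariate (-0.0367) and without null replicate 2 (-0.0601), ranging up to 0.196 without null replicate 4, and Cbln3 with the Hox covariate (0.0692). The other 7 genes kept their direction in every alternative that tested them, and the cause of these shifts was not tested. The CPM minimum left Atoh1 untested. Library size alone moved the median of all genes to -0.086 and that of the 9 genes to -0.046. Depth limits Atoh1 (1 to 34 counts) and Cbln3 (29 to 60 counts) most.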

Other observations

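Sensory hair cells of the inner ear also use Atoh1 and Barhl1, and Barhl2 is made in the retina, so their marker lists were read as values. Of 5 hair cell genes, Gfi1 and Tmc1 had at most 4 and 7 counts in a library and Pou4f3, a defining factor, had 3 to 20 counts, while Myo7a (48.6 to 57.2 CPM) and Otof (21.0 to 39.1 CPM), which the brain also expresses, made up the rest. Among 4 photoreceptor genes the summed level was 1.51 to 2.54 CPM, and Crx was at 1.05 CPM (up to 37 counts) in heterozygous pup 11 and at 0 counts in 4 of the other libraries.

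Thalamic and habenular genes summed to 415 to 519 CPM in heterozygous libraries and 468 to 507 CPM in those labelled null, with 2 of 7 fold changes positive and a median of -0.12, which was 0.01 without null pup 2, 0.0016 without heterozygous pup 6 and -0.04 without heterozygous pup 7. Of the 7 genes, 2 had their lowest level in null pup 2. One of these, Pou4f1, a factor of the habenula and of sensory neurons, was picked with its values in view. It was at 4.96 CPM in null pup 2 and at 10.9 to 15.9 CPM in the others. Tcf7l2, of the same list, was instead highest in null pup 2, at 195 CPM against 96.0 to 184.5 CPM in the others. Olfactory bulb genes summed to 129 to 190 CPM and 142 to 178 CPM, with 2 of 6 positive and a median of -0.02, which ran from -0.19 without heterozygous pup 11 to 0.08 without heterozygous pup 6. In these 2 lists 0 genes were called.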
